A study of Mus musculus with 4 samples.

Results

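The genes examined were 10 direct transcriptional targets of p53 (Cdkn1a, Mdm2, Bax, Ccng1, Zmat3, Phlda3, Trp53inp1, Sesn1, Ddb2 and Aen), chosen by name and followed in 4 cell classes of the mouse draining lymph node. All 10 were among the genes of the deposited matrices. Cells came from wild-type C57BL/6 mice, and each group held 2 libraries described as biological replicates, so n = 2 per group throughout. The EV group received a total of 100 µg of extracellular vesicles (EVs) from induced pluripotent stem cells (iPSCs) under the skin, and the control group is labelled as untreated in the sample records whereas the study's methods give injections of PBS. The sample records give a duration of 24 h, and the series' design text and the methods give a harvest after 5 days. How many animals gave each suspension was not given in the sources used here.

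p53 is a transcription factor that is held at a low level by MDM2, an E3 ubiquitin ligase, and accumulates when DNA is damaged or growth signals are abnormal. Its targets then stop the cell cycle, repair DNA, limit oxidative stress or start apoptosis, and Mdm2 itself is a target, which closes a negative feedback loop. In lymphocytes this pathway is known for deleting cells with broken DNA and for setting the threshold of apoptosis. Many targets also have a basal level that does not need p53, and several are regulated by other factors.

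Cells were assigned by a few transcripts. B cells had a Cd79a UMI and no Cd3e, CD4 T cells had Cd3e and Cd4 without Cd8a or Cd79a, CD8 T cells had Cd3e and Cd8a without Cd4 or Cd79a, and macrophages had at least 2 UMIs of C1qa and C1qb together without Cd3e. A UMI (unique molecular identifier) counts a captured mRNA molecule once. This gave 14686 B cells, 5197 CD4 T cells, 5901 CD8 T cells and 280 macrophages of 32725 cells kept. B cells were 37.0% and 31.7% of the kept cells in control libraries and 59.6% and 50.4% in EV libraries. CD4 T cells were 17.0% and 20.6% against 11.3% and 14.9%, and CD8 T cells 20.7% and 23.6% against 12.3% and 15.9%. UMI counts of a class are to be read beside these shares. Further markers matched the labels in the lymphocytes, with Cd79b in 97.9 to 98.9% of the B cells, Trac in 93.3 to 97.7% of the CD4 T cells and Cd8b1 in 97.7 to 98.8% of the CD8 T cells. The macrophage class numbered 42 and 80 cells in control libraries and 91 and 67 cells in EV libraries. Lyz2 was in 92.9 to 96.7% of its cells and Csf1r in 19.8 to 29.9%, but Cd79a, a B cell gene, was also in 11.9% and 12.5% of its control cells and in 22.0% and 23.9% of its EV cells. The summed level of the 7 B cell markers in this class was 3141 and 2927 CPM without EVs and 5483 and 6061 CPM with EVs, with no marker at 0, where CPM is the count of a gene relative to all counts of the class in that library. Its 8 macrophage markers summed to 23387 and 19928 CPM without and to 14904 and 10925 CPM with EVs. Its cells were shallow, with a median of 1100 to 1456 UMIs, against 4141.5 to 5811 in B cells, 6046 to 8339 in CD4 T cells and 7397 to 9871 in CD8 T cells. In each lymphocyte class the EV cells were deeper than the control cells. No cell class can be taken to lack these genes, so the level of free RNA was not measured with them.

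All 10 genes are protein coding (GENCODE M21 on GRCm38). Cdkn1a spans positions 29090976 to 29100727 of chromosome 17 (+ strand), Sesn1 41809935 to 41908424 of chromosome 10 (+), Aen 78895854 to 78911209 of chromosome 7 (+) and Mdm2 117688875 to 117710758 of chromosome 10 (- strand). Sequence upstream of a transcription start is shown for Cdkn1a and Sesn1, on which the results turn, and for Mdm2, the feedback gene. The windows are those of RefSeq (GRCm38.p6), which held entries for 7 of the 10 genes in 10 windows of 300 bases. Zmat3, Trp53inp1 and Ddb2 had no entry. Capitals mark exact matches of the p53 decamer motif, so copies with a mismatch are not marked. A full p53 response element holds a pair of the motif, which reads alike on both strands. Each line gives the 250 bases before the start site, 5′ to 3′, on the strand of the gene.
Cdkn1a, chr17:29090729-29090978 (+): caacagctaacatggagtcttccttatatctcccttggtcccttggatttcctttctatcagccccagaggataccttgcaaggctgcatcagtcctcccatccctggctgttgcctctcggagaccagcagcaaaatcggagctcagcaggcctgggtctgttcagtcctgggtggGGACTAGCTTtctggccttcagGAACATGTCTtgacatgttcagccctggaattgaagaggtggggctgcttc
Mdm2, chr10:117710759-117711008 (-): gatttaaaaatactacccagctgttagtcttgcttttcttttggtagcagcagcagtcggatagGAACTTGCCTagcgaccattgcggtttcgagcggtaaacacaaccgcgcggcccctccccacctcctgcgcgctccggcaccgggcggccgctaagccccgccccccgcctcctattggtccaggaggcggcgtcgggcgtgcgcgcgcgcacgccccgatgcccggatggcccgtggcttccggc
Sesn1, chr10:41887189-41887438 (+), before an internal start site of the gene: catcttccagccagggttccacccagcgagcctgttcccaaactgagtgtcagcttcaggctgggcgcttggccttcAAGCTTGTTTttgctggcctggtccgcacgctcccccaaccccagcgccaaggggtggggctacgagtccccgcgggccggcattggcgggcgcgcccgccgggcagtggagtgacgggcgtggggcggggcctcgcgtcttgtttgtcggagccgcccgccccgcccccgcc
In Cdkn1a the motif lay 73 and 51 bases before the start site shown, with 12 bases between the copies. The other Cdkn1a window, at a start farther downstream, held no copy, nor did the other Sesn1 window. The motif lay 186 bases before the Mdm2 start, 173 bases before the Sesn1 start shown and 121 bases before an Aen start. Over the whole windows, which run to 50 bases after the start, the motif was found in 6 of the 7 genes (Phlda3 was without it) and in 7 of the 10 windows (the 2 Aen windows overlap and hold the same copy, which is counted in both), beside 8.36% of all 32851 mouse promoter windows of that length. A pair with at most 13 bases between its copies was found in Cdkn1a alone among these genes, and in 0.0731% of all windows. These are matches of letters in a window, given as a description.

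Which class held most of each transcript was compared first, since it sets what an EV effect can be read from. Levels are CPM after TMM scaling of all 16 sums (4 classes in 4 libraries), and each class was tested against CD4 T cells with edgeR's quasi-likelihood test and Benjamini-Hochberg adjustment over 14043 genes. Other pairs of classes were not tested. Each class difference pools control and EV libraries, so it includes any difference in EV effect between those classes. Cdkn1a stood far above the lymphocytes in macrophages, and Sesn1 was higher in B cells than in CD4 T cells. In B cells 7 genes of arrest, death, RNA regulation and repair were lower than in CD4 T cells, and the Mdm2 difference was near 0. In B cells 9 of the 10 genes differed from CD4 T cells, beside 65.8% of all genes tested, with 2 higher (27.6% of all genes) and 7 lower (38.3%). In CD8 T cells 3 of 10 were called, beside 28.9% of all genes, all lower (15.4%). In macrophages 6 of 10 were called, beside 37.5%, with 3 higher (17.5%) and 3 lower (20%). The median over all genes of the macrophage contrast was -0.30 on the log2 scale (-0.20 with RLE scaling), so a macrophage value is to be read against that shift.

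**Figure D1:**
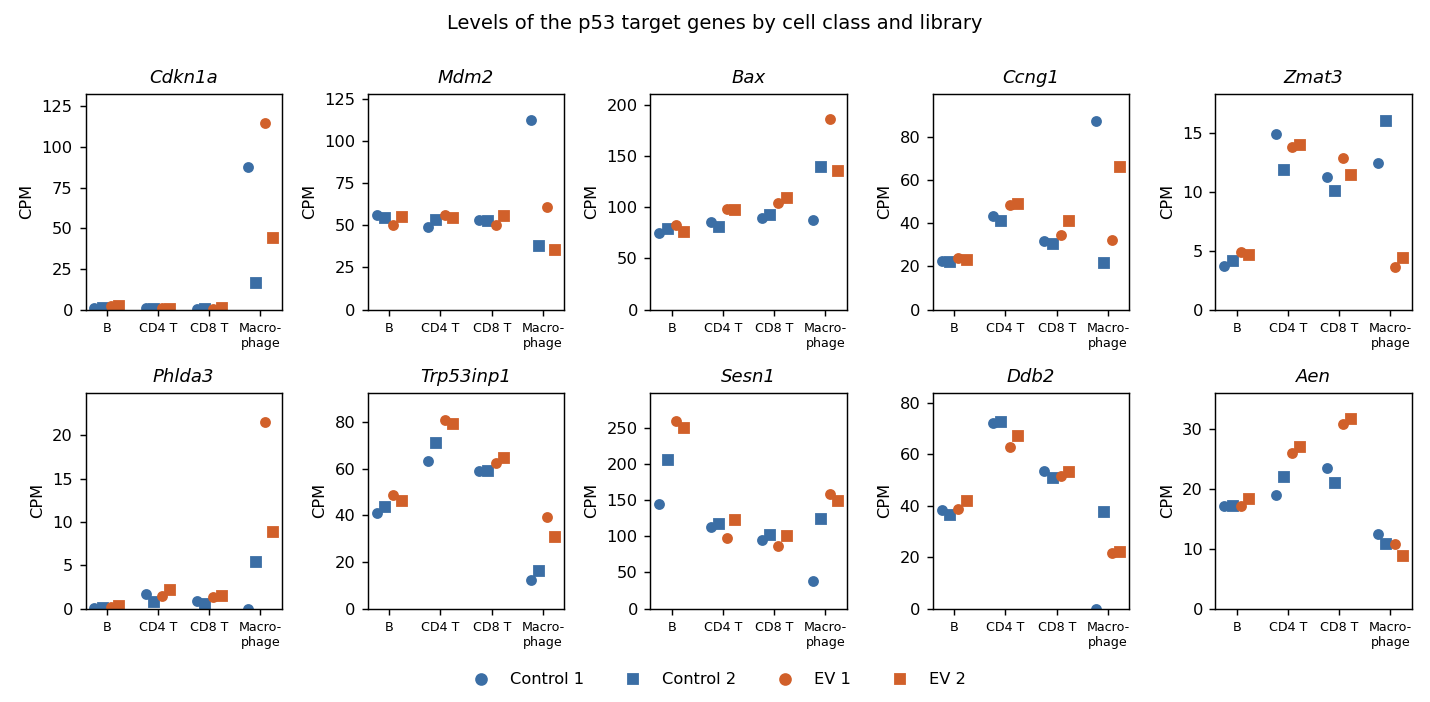
Level of each of the 10 genes (vertical axis, CPM from 0, with a scale of its own per gene) in 4 cell classes (horizontal axis). Points are single libraries, blue for control and orange for EV, circles for replicate 1 and squares for replicate 2. Cdkn1a is near 0 in the lymphocytes and between 16.1 and 115 CPM in macrophages, Sesn1 in B cells is at 145 to 260 CPM, above all its T cell points, and the macrophage points scatter widely.

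Cdkn1a encodes p21, the cyclin-dependent kinase inhibitor that carries p53-dependent cell cycle arrest. Its level in macrophages was 87.5 and 16.1 CPM (control libraries 1 and 2) and 115 and 43.9 CPM (EV libraries 1 and 2). In B cells it ran from 0.890 to 2.33 CPM, and in the T cells no library was above 1.18 CPM. Every macrophage library was thus above every lymphocyte library. The difference between macrophages and CD4 T cells was 6.38 on the log2 scale (SE 0.49, adjusted p = 3.09e-09), or 83.1-fold, and it ranged from 5.82 to 7.40 over the alternatives run. The counts behind it were small, 7, 3, 32 and 10 UMIs in 4, 2, 11 and 6 macrophages in the same order, against 6, 6, 9 and 4 UMIs in all CD4 T cells. A single EV cell held 13 of the 32. B cells were 1.25 above CD4 T cells on the log2 scale (SE 0.42, adjusted p = 0.013), which was not called with stricter gates (0.93, adjusted p = 0.12) or without EV library 2 (0.88, adjusted p = 0.092) and was -0.06 in thinned cells.

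Most Cdkn1a molecules lay in cells of none of the 4 classes. Of 73, 144, 379 and 220 UMIs in the kept cells of the 4 libraries, in the order above, 61.6%, 78.5%, 69.4% and 60% were outside, while the cells outside were 24.8%, 23.2%, 15.9% and 18.2% of all. Of those UMIs outside, 31.1% and 34.5% in the control and 79.8% and 44.7% in the EV libraries were in cells with a macrophage marker UMI. These were 14 and 39 UMIs in the control and 210 and 59 in the EV libraries. Such cells were 6.43% and 12.0% of the cells outside in the control and 17.1% and 12.6% in the EV libraries. A conventional dendritic cell marker was in cells with 60% and 67.3% of the UMIs outside in the control and 30.0% and 47.7% in the EV libraries. As counts these were 27 and 76 UMIs in the control and 79 and 63 in the EV libraries. Cells with that marker were 4.70% and 7.47% of the cells outside in the control and 6.23% and 6.37% in the EV libraries. Both kinds of marker could be in the same cell.

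Ccng1, which encodes cyclin G1 and acts with a phosphatase on MDM2, had its highest lymphocyte level in CD4 T cells, at 43.3 and 41.1 CPM (control) and 48.4 and 48.7 CPM (EV). Its level was lower in CD8 T cells, at 30.1 to 40.9 CPM, by 0.40 on the log2 scale (adjusted p = 0.00048). It was lowest in B cells, at 22.0 to 23.6 CPM, where the difference from CD4 T cells was -1.01 on the log2 scale (SE 0.08, adjusted p = 5.48e-10). The macrophage libraries ran from 21.4 to 87.5 CPM and overlapped all of these. Mdm2, the feedback ligase, had 49.2 to 56.2 CPM in all 12 lymphocyte sums. Its difference from CD4 T cells was 0.02 in B cells (95% interval -0.12 to 0.15) and -0.00 in CD8 T cells (-0.15 to 0.14), both on the log2 scale.

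Among the genes of apoptosis, Bax, which permeabilizes mitochondria, was at 75.0 to 82.7 CPM in B cells, 81.3 to 98.2 in CD4 T cells and 89.8 to 109 in CD8 T cells. It was called 0.21 lower in B than in CD4 T cells on the log2 scale (adjusted p = 0.0027), a call lost without the filter on low counts, with stricter gates or without doublets, and without control library 1 or EV library 2. In thinned cells the Bax difference turned to 0.015 (adjusted p = 0.92). Macrophages, at 87.5 to 187 CPM, were 0.70 higher than CD4 T cells (adjusted p = 0.0012), which was not called without EV library 1 (0.42, adjusted p = 0.13). The annotated Bax gene overlaps Gm45808 on the same strand, so reads of that model cannot be told apart here. Aen, an exonuclease that acts in apoptosis, was lowest in macrophages at 8.78 to 12.5 CPM (1 to 3 UMIs a library). It was at 17.2 to 18.3 CPM in B cells, 0.44 below CD4 T cells (adjusted p = 0.00019), and CD8 T cells at 20.9 to 31.6 CPM did not pass the test against CD4 T cells at 18.9 to 26.9 CPM (0.17, adjusted p = 0.16). By group, Aen in CD4 T cells was at 18.9 and 21.9 CPM in the control and 25.9 and 26.9 CPM in the EV libraries. The macrophage call for Aen (-1.22, adjusted p = 0.048) was lost with RLE scaling, thinned cells, stricter gates, doublets removed and without control library 2, EV library 1 or EV library 2.

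Phlda3, a p53 target that dampens AKT signalling, was rare everywhere. B cells held 1, 1, 7 and 7 UMIs in the 4 libraries and CD4 T cells 15, 8, 11 and 21, from fewer cells, a difference of -3.18 on the log2 scale (SE 0.40, adjusted p = 8.42e-07). Macrophages held 0, 1, 6 and 2 UMIs, of which 5 came from 1 cell, and were 2.79 above CD4 T cells (adjusted p = 0.0012), falling to 1.77 (adjusted p = 0.19) without EV library 1. Zmat3, an RNA-binding protein that steers splicing and mRNA decay downstream of p53, was at 3.70 to 4.87 CPM in B cells and 11.8 to 14.9 CPM in CD4 T cells, with no overlap, a B cell difference of -1.64 (SE 0.11, adjusted p = 1.05e-10). CD8 T cells, at 10.1 to 12.9 CPM of Zmat3, overlapped CD4 T cells and did not pass the test against them (adjusted p = 0.075). Trp53inp1, a nuclear and autophagy protein that promotes p53-dependent death, was at 41.2 to 48.6 CPM in B cells, 59.0 to 64.5 in CD8 T cells and 63.5 to 80.8 in CD4 T cells. It was 0.72 lower in B cells (adjusted p = 3.40e-10) and 0.26 lower in CD8 T cells (adjusted p = 0.00095) than in CD4 T cells on the log2 scale. In macrophages it was at 12.5 to 39.5 CPM, 1.40 lower (adjusted p = 7.23e-05). Its macrophage UMIs were 1 and 3 in the control and 11 and 7 in the EV libraries. Of these, 1 and 2 (control) and 10 and 4 (EV) lay in cells that also held Cd79a.

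The stress gene Sesn1 and the repair gene Ddb2 differed in opposite directions between B cells and CD4 T cells. Ddb2, the damage sensor of nucleotide excision repair, was highest in CD4 T cells at 62.8 to 72.6 CPM, then CD8 T cells at 50.8 to 53.6 CPM and B cells at 36.3 to 41.9 CPM. These levels did not overlap, and the differences from CD4 T cells were -0.40 in CD8 T cells (adjusted p = 9.19e-05) and -0.82 in B cells (adjusted p = 7.41e-10). In macrophages Ddb2 was at 0 in control library 1 and at 21.5 to 37.5 CPM in the remaining libraries, and all of its 7, 6 and 5 UMIs there lay in cells that also held Cd79a. Sesn1, which encodes sestrin 1, an inhibitor of mTORC1 in stress and amino acid shortage, was higher in B cells instead. Its B cell level was 145 and 205 CPM (control) and 260 and 249 CPM (EV), against 97.0 to 122 CPM in CD4 T cells and 85.8 to 101 CPM in CD8 T cells. B cells were 0.92 higher than CD4 T cells on the log2 scale (SE 0.11, adjusted p = 6.00e-07), or 1.89-fold. That value pools both groups, and a difference in the EV effect on Sesn1 between these classes was called, as given below. By group, CD4 T cells were at 112 and 117 CPM in the control and 97.0 and 122 CPM in the EV libraries. In macrophages Sesn1 was at 37.5, 123, 158 and 149 CPM, but 0 of 3, 15 of 23, 39 of 44 and 30 of 34 of its UMIs lay in cells with Cd79a. With stricter gates, which leave those cells out, its macrophage difference from CD4 T cells turned from 0.21 (adjusted p = 0.63) to -1.43 (adjusted p = 0.043). The annotated Sesn1 gene overlaps 9930024M15Rik on the same strand.

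One question of the study was how lymph node cells respond to iPSC EVs, and each of the 10 genes was compared between EV and control libraries within each class. The paper lists a p53 pathway set among those enriched in the changed genes of its CD4 and CD8 T cell subsets. Those genes came from a Wilcoxon test over cells, and enrichment of sets was not tested here. Values from here on are CPM after TMM scaling within the class, which differ slightly from those above. Aen was higher in CD8 T cells of the EV group and was the 1 call among the 9 genes tested there, beside 2.2% of all genes tested in either direction and 1.34% called higher. None of the 9 genes tested in B cells was called by edgeR's quasi-likelihood test, beside 2.55% of all genes, and none of the 9 tested in CD4 T cells, beside 1.09%. At an unadjusted p under 0.05 there were 2 in B cells (Sesn1 and Cdkn1a), 3 in CD4 T cells (Aen, Bax and Trp53inp1) and 4 in CD8 T cells (Aen, Bax, Ccng1 and Phlda3), beside 18.9%, 16.7% and 18.2% of all genes tested at that p. DESeq2 called 1 (Sesn1 in B cells), 0 and 0, beside 460, 158 and 165 of all genes. Leaving out EV library 1 raised the calls over all genes from 338 to 2584 in B cells, from 130 to 2077 in CD4 T cells and from 270 to 2168 in CD8 T cells, and leaving out EV library 2 gave 946, 852 and 724. Adjusted p-values without either library are to be read beside this. In macrophages 0 of the 5 tested were called by edgeR, beside 0% of 3497 genes, with 0 at an unadjusted p under 0.05 and 0 by DESeq2. Of the genes tested, 8 of 9 in B cells, 7 of 9 in CD4 T cells and 8 of 9 in CD8 T cells had a positive fold change, with median log2 fold changes of 0.12, 0.21 and 0.21 beside medians of -0.00, 0.00 and 0.00 over all genes. The B cell tally did not hold in cells thinned to equal depth, where 4 of 8 genes tested were positive and 4 negative. In thinned CD4 and CD8 T cells 6 of 8 were positive in each. Median log2 fold changes in thinned cells were 0.07, 0.18 and 0.14 in B, CD4 T and CD8 T cells. Both EV libraries lay outside the range of both controls for 7 of the 9 in B cells, beside 51.8% of all genes, and all 7 were higher, beside 25.6%. This held in CD4 T cells for 6 of 9, beside 49.4%, with 5 higher (24.2% of all genes) and 1 lower (25.2%). In CD8 T cells it held for 6 of 9, beside 49.7%, all higher (24.4%), and in macrophages for 1 of 5, beside 41.4%, which was higher (20.9%). These counts are from cells that were not thinned. Among thinned B cells, the share with a UMI was lower with EVs for Mdm2 and Zmat3, without overlap. That share was higher without overlap for Sesn1, Ccng1, Trp53inp1 and Aen. Genes not tested for low counts were Phlda3 in B cells, Cdkn1a in both T cell classes, and Zmat3, Phlda3, Trp53inp1, Ddb2 and Aen in macrophages.

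**Figure D2:**
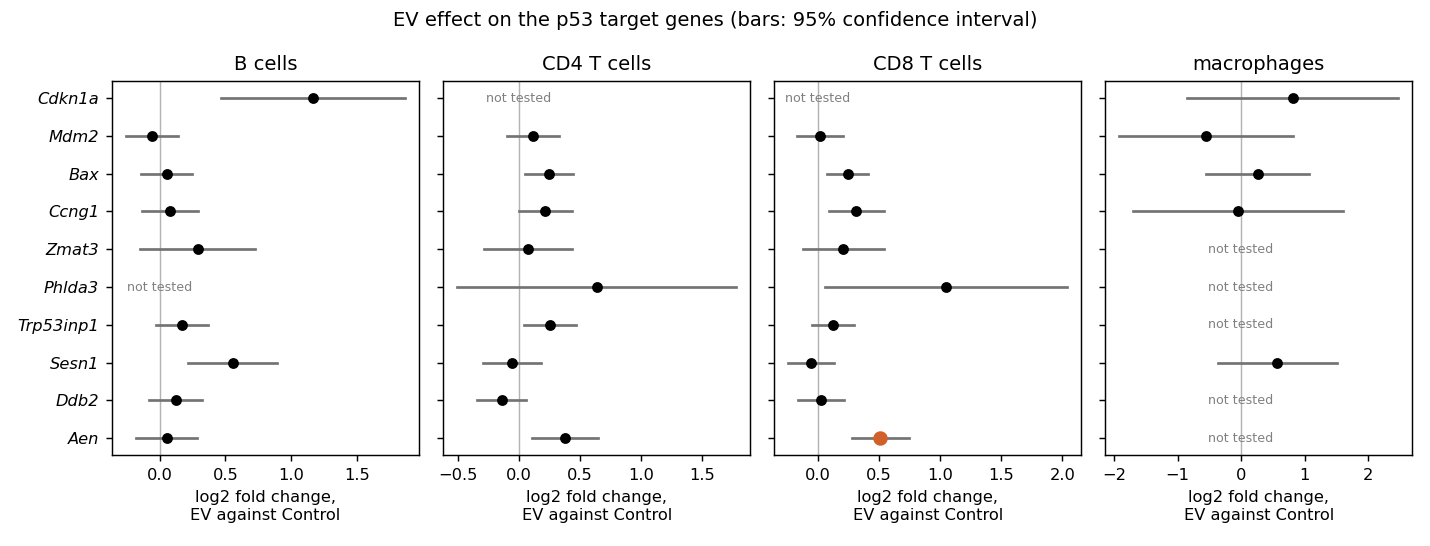
EV effect on the 10 genes in 4 cell classes. Points are log2 fold changes, EV against control (horizontal axis, scaled per class), bars are 95% confidence intervals from edgeR, and the orange point is the call past an adjusted p of 0.05. Aen in CD8 T cells is the orange point at 0.51, Sesn1 stands at 0.55 and Cdkn1a at 1.16 in B cells with wide bars, and the macrophage bars are the widest.

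Aen in CD8 T cells was at 21.7 and 19.1 CPM (control) against 28.7 and 29.1 CPM (EV). The groups did not overlap, and the log2 fold change was 0.51 (SE 0.11, adjusted p = 0.031), a 1.42-fold difference. The call was lost with DESeq2 (adjusted p = 0.13), with cells thinned to 1000 UMIs (0.57), with another cell filter, which set under 5% mitochondrial UMIs and put no ceiling on genes or UMIs (0.068), and without control library 2 (log2 fold change 0.42, adjusted p = 0.19). In CD4 T cells Aen was at 18.1 and 20.9 CPM (control) against 25.2 and 25.7 CPM (EV), which did not overlap, and the log2 fold change of 0.38 (SE 0.12) had an adjusted p of 0.16 (from 0.025 without EV library 1 to 0.87 without control library 1). In B cells its values were 18.0 and 17.9 against 18.1 and 19.2 CPM, a log2 fold change of 0.06. The EV effect in CD8 T cells minus that in CD4 T cells was 0.13 (95% interval -0.16 to 0.43, adjusted p = 1), and in B cells minus CD4 T cells -0.32 (-0.61 to -0.03, adjusted p = 0.42), so no difference between classes passed the test. At equal depth the share of CD8 T cells with an Aen UMI was 2.08% and 1.40% (control) against 2.49% and 2.36% (EV), with the smallest p an exact permutation test of 2 against 2 allows, 0.33. In CD8 T cells the median share of mitochondrial UMIs was 3.15% and 3.06% (control) against 3.26% and 3.53% (EV). The summed level of Siglech and Bst2, listed as plasmacytoid dendritic cell markers, was 70.2 and 83.8 against 114 and 125 CPM. Such a sum does not tell those cells apart from a change of either gene within CD8 T cells. Neither this sum nor the mitochondrial share overlapped between the groups, and their part in the Aen values was not tested.

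Sesn1 had the 1 called difference in EV effect between classes. In B cells it was at 152 and 213 CPM (control) against 274 and 261 CPM (EV), so that both EV libraries were above both controls and the controls were farther apart than the EV libraries. The log2 fold change was 0.55 (SE 0.15), or 1.47-fold, with an adjusted p of 0.091 by edgeR and 0.00398 by DESeq2. It was 0.33 without control library 1 (adjusted p = 0.65) and 0.82 without control library 2 (0.054), and it was called without EV library 1 (0.52, adjusted p = 3.09e-05) or EV library 2 (0.59, adjusted p = 0.0087). In CD4 T cells Sesn1 was at 108 and 112 against 94.3 and 117 CPM, and in CD8 T cells at 86.9 and 92.2 against 80.3 and 91.7 CPM. Both sets overlapped, with log2 fold changes of -0.05 and -0.06. The EV effect in B cells minus that in CD4 T cells was 0.61 (SE 0.13, adjusted p = 0.0082), the 1 call among the 10 genes in this contrast, beside 1.68% of all genes and 0.762% in that direction. At an unadjusted p under 0.05 there were 4 of the 10 (Sesn1, Ddb2, Aen and Bax), beside 10.2% of all genes. It was not called without control library 1 (0.40, adjusted p = 0.30) or EV library 1 (0.45, adjusted p = 0.081). No gene of the 10 had a called difference in EV effect between CD8 and CD4 T cells, beside 0.114% of all genes, or between macrophages and CD4 T cells, beside 0.0997%, by edgeR, with 0 at an unadjusted p under 0.05 in both.

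Depth and other cells were examined beside the Sesn1 values. With each B cell thinned to 1000 UMIs, 14.1% and 17.8% of control and 22.4% and 19.98% of EV B cells held a Sesn1 UMI, 15.96% ± 2.60 against 21.2% ± 1.70 (SD, n = 2 each), whereas unthinned shares were 47.1% ± 7.98 and 62.6% ± 1.41. The exact permutation test gave p = 0.33, the smallest that 2 libraries against 2 allow. Of the Sesn1 UMIs in B cells, 99 of 2119, 176 of 2894, 561 of 8374 and 402 of 6853 lay in cells with a macrophage marker UMI, and with stricter gates the log2 fold change was 0.56. A list of 10 cell cycle genes summed to 45.6 and 88.0 CPM (control) against 80.0 and 75.4 CPM (EV) in B cells, so control library 1 was lowest in both quantities. A list of 12 early response genes of tissue dissociation summed to 1401 and 1187 CPM (control) against 1458 and 1162 CPM (EV), which overlapped. The median share of mitochondrial UMIs in B cells was 3.15% and 3.06% (control) against 3.38% and 3.78% (EV), which did not overlap. The part of cell cycle genes and of mitochondrial UMIs in the Sesn1 values was not tested.

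**Figure D3:**
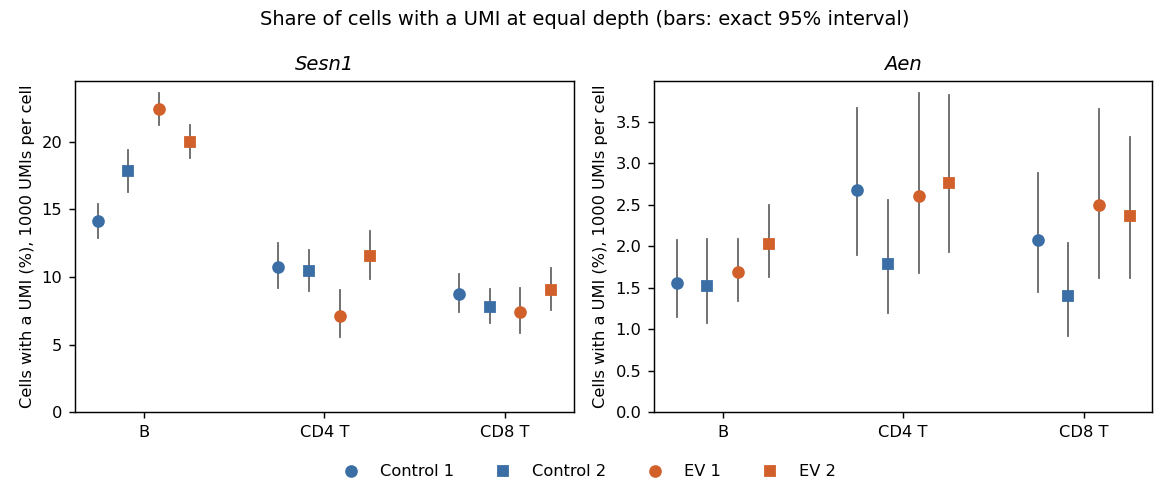
Share of cells with a UMI of Sesn1 (left) or Aen (right) when every cell was thinned to 1000 UMIs (vertical axis, percent, from 0), by class and library. Bars are exact 95% binomial intervals, which cover counting error only. Sesn1 in B cells stands at 14.1% and 17.8% in the control and 22.4% and 19.98% in the EV libraries, and Aen in CD8 T cells at 2.08% and 1.40% against 2.49% and 2.36%.

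Cdkn1a in B cells was at 0.931 and 1.25 CPM (control) against 2.46 and 2.44 CPM (EV). The groups did not overlap, and the log2 fold change was 1.16 (SE 0.31, adjusted p = 0.091). These levels came from 13 and 17 UMIs in 11 and 14 control cells, and from 75 and 64 UMIs in 32 and 30 EV cells. Of the EV UMIs, 58 of 75 and 29 of 64 lay in B cells that also held a macrophage marker UMI, against 2 of 13 and 0 of 17 in the controls, while such cells were 4.31% and 5.83% of control and 7.03% and 6.30% of EV B cells. The 8 macrophage markers summed to 45.0 and 44.3 CPM (control) against 87.4 and 62.6 CPM (EV). A single EV cell held 21 of the 64 UMIs. With stricter gates the UMIs were 13, 14, 26 and 32, the log2 fold change was 0.07 (adjusted p = 0.94), and with the other cell filter it was 0.66. At 1000 UMIs per cell the share of B cells with a Cdkn1a UMI was 0.0767% ± 0.0615 in the control and 0.0877% ± 0.00762 in the EV libraries.

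**Figure D4:**
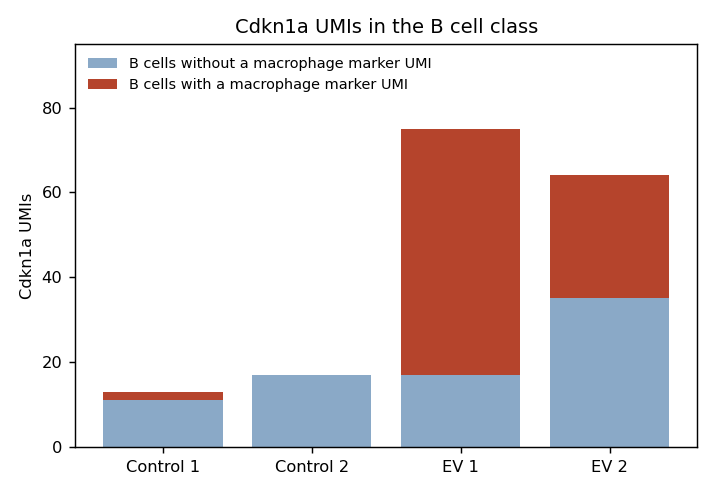
Cdkn1a UMIs in the B cell class (vertical axis, counts from 0) of each library. The blue part of a bar is UMIs in B cells without a macrophage marker UMI and the red part UMIs in B cells with one. The red part is 2 of 13 and 0 of 17 in the control and 58 of 75 and 29 of 64 in the EV libraries.

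In macrophages Cdkn1a was at 120 and 20.6 CPM (control) against 133 and 51.4 CPM (EV). The groups overlapped, and the log2 fold change was 0.82 (SE 0.76, adjusted p = 0.83). Sesn1 there was at 51.5 and 158 against 183 and 175 CPM, did not overlap, and had a log2 fold change of 0.57 (SE 0.43, adjusted p = 0.76), with the B cell markers higher in the same EV libraries as given above. Mdm2, Bax and Ccng1 overlapped, with log2 fold changes of -0.55, 0.27 and -0.05 and SEs of 0.62, 0.37 and 0.75.

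Several other genes of the death and arrest branches had values in the same direction in T cells without passing the test. Bax was at 82.8 and 84.5 CPM (control) against 97.7 and 100.4 CPM (EV) in CD8 T cells, a log2 fold change of 0.24 (SE 0.08, adjusted p = 0.13, from 0.0082 without EV library 1 to 0.73 without control library 1). Its CD4 T cell levels were 81.9 and 77.5 against 95.5 and 93.2 CPM, 0.24 (SE 0.09, adjusted p = 0.20), and neither class overlapped between groups. Ccng1 was at 29.2 and 27.5 against 32.4 and 37.7 CPM in CD8 T cells, 0.31 (SE 0.10, adjusted p = 0.14, from 0.00070 without EV library 1 to 0.50 without control library 2), and at 41.6 and 39.2 against 47.1 and 46.5 CPM in CD4 T cells, 0.21 (adjusted p = 0.30). In B cells Bax (0.06) and Ccng1 (0.08) had smaller values. Trp53inp1 had log2 fold changes of 0.17 in B cells, 0.26 in CD4 T cells and 0.12 in CD8 T cells, with non-overlapping libraries in each and adjusted p from 0.21 to 0.45. Phlda3 in CD8 T cells was at 0.833 and 0.477 against 1.28 and 1.38 CPM, 2.07-fold, with an SE of 0.46 on the log2 scale (adjusted p = 0.25), from 11 and 8 control and 13 and 18 EV UMIs. In CD4 T cells its log2 fold change was 0.64 with an SE of 0.52 (adjusted p = 0.57) and the libraries overlapped.

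Zmat3, Ddb2 and Mdm2 had no called difference in any lymphocyte class. Zmat3 had log2 fold changes of 0.29, 0.08 and 0.21 in B, CD4 T and CD8 T cells, with intervals that spanned 0 in each. Ddb2 had 0.12, -0.14 and 0.02, and Mdm2 had -0.06, 0.12 and 0.02. For Mdm2, whose transcript is a widely used readout of p53 activity, the 95% intervals were -0.25 to 0.14 in B cells, -0.10 to 0.33 in CD4 T cells and -0.17 to 0.20 in CD8 T cells.

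Counted per cell at equal depth, transcripts of the 10 genes together averaged 0.440 and 0.496 UMIs per 1000 in control B cells and 0.544 and 0.546 in EV B cells. In CD4 T cells they averaged 0.488 and 0.439 in the control and 0.466 and 0.529 in the EV libraries, and in CD8 T cells 0.381 and 0.373 against 0.390 and 0.424. At least 2 of the genes were seen together in 5.88% and 6.33% of control and 7.14% and 7.15% of EV B cells. The same share was 7.52% and 5.91% (control) against 6.39% and 8.52% (EV) in CD4 T cells. In CD8 T cells it was 4.22% and 4.890% against 4.885% and 5.24%, and both T cell classes overlapped between groups. These shares were not counted without Sesn1. Of the lymphocyte classes, B cells and CD8 T cells had averages that did not overlap between groups, by small margins in CD8 T cells. Most of the B cell difference lay in Sesn1. The 10 genes together summed to 426 and 488 CPM (control) against 546 and 534 CPM (EV) in B cells without thinning or TMM scaling, and the 9 genes other than Sesn1 to 271.8 and 271.8 against 278 and 276 CPM.

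Within the CD4 T cells, 307 cells held a UMI of Foxp3, the transcription factor of regulatory T cells, and were compared with the other CD4 T cells of the same library, a comparison added after the data were seen. Of the 9 genes tested, 4 were higher in the Foxp3 cells, beside 17.5% of all genes called in either direction and 10.4% called higher. Trp53inp1 was at 90.1, 125, 146 and 150.4 CPM in the Foxp3 cells and 61.0, 66.7, 76.6 and 73.5 CPM in the others (control libraries 1 and 2, EV libraries 1 and 2), a log2 difference of 0.86 (SE 0.11, adjusted p = 3.48e-06). Every Foxp3 value was above every other value. Sesn1 was at 175, 164, 124 and 228 CPM against 106, 113, 95.7 and 114 CPM, 0.68 higher (SE 0.11, adjusted p = 3.82e-05), and Ccng1 at 69.2, 64.9, 75.7 and 52.0 CPM against 40.9, 39.0, 46.8 and 47.6 CPM, 0.60 higher (SE 0.14, adjusted p = 0.0037), each in 4 of 4 libraries. Phlda3 was higher by 1.91 (SE 0.64, adjusted p = 0.042), from 6, 2, 2 and 2 UMIs, and without control library 1, control library 2 or EV library 1 the adjusted p was 0.31, 0.11 and 0.064. The log2 differences of Ddb2, Zmat3, Bax, Aen and Mdm2 lay between -0.18 and 0.51 and did not pass the test, and Cdkn1a was not tested for low counts. Only without EV library 2 did Cdkn1a pass the filter, at 3.93 higher in the Foxp3 cells (adjusted p = 0.0046). All CD4 T cells of the remaining libraries held just 6, 6 and 9 Cdkn1a UMIs. Median depth was 6921 to 8267.5 UMIs in the Foxp3 cells and 6007 to 8363 in the others. The cell cycle genes summed to 450, 118, 164 and 128 CPM in the Foxp3 cells against 116, 73.9, 47.6 and 73.8 CPM in the others, and the dissociation genes to 1035, 1033, 1384 and 924 against 933, 879.8, 1044 and 809 CPM. Both sums were higher in the Foxp3 cells in 4 of 4 libraries, and their part in these differences was not tested.

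**Figure D5:**
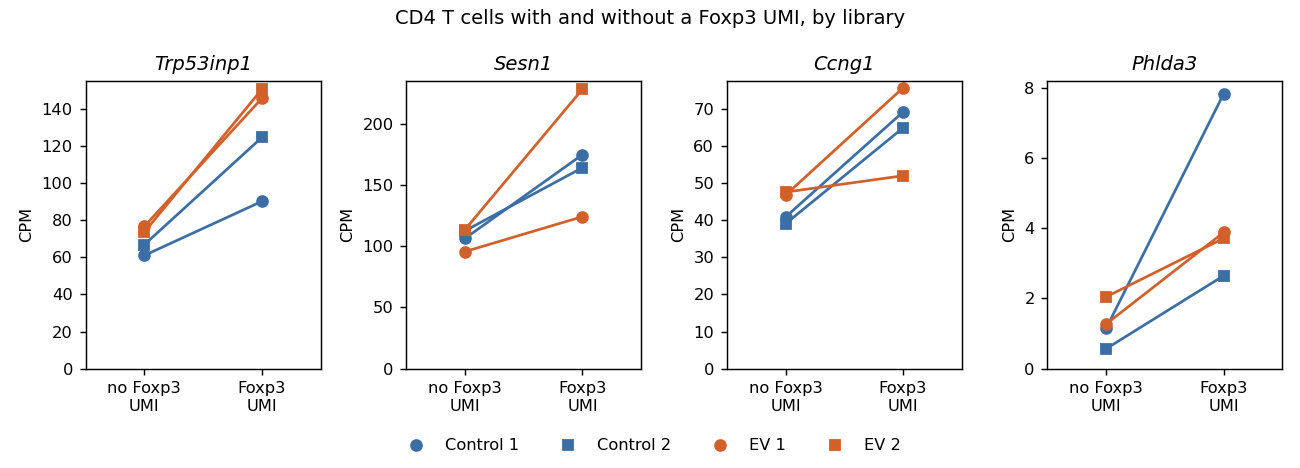
Level of 4 genes (vertical axis, CPM from 0) in CD4 T cells without and with a Foxp3 UMI (horizontal axis). A line joins the values of 1 library, blue for control and orange for EV, circles for replicate 1 and squares for replicate 2. Every line rises, from 61.0 to 76.6 CPM up to 90.1 to 150.4 CPM for Trp53inp1.

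A wider list of 51 further genes of the pathway, by role, was tested in the same fits. None of the 45 tested in B cells, 37 in CD4 T cells, 40 in CD8 T cells and 11 in macrophages was called by edgeR, with 9, 6, 10 and 0 at an unadjusted p under 0.05 and 0 by DESeq2 in each class. At that p were 18.9%, 16.7%, 18.2% and 9.04% of all genes. Calls in the wider list without EV library 1 or EV library 2 are not counted here, since calls over all genes rose in those fits too, as given above. Positive fold changes were found for 28 of 45, 21 of 37, 19 of 40 and 6 of 11. By role, the regulators of p53 had a positive fold change in 6 of 9, 5 of 8 and 6 of 9 genes tested in B, CD4 T and CD8 T cells, the death genes in 4 of 9, 4 of 7 and 4 of 8, and the cell cycle genes in 6 of 8, 2 of 6 and 1 of 6. Repair genes were positive in 3, 2 and 3 of 6. Metabolism genes were positive in 4 of 6, 5 of 6 and 2 of 5, and the remaining genes in 5 of 7, 3 of 4 and 3 of 6. Over all genes the median log2 fold change was -0.00, 0.00 and 0.00 in these classes. Trp53, which encodes p53, was at 117 and 112 CPM (control) against 120 and 146 CPM (EV) in CD8 T cells, a log2 change of 0.22 (adjusted p = 0.25), which was 0.05 in B and 0.17 in CD4 T cells. Its level was 0.42 lower in B cells (adjusted p = 6.31e-07) and 0.26 higher in CD8 T cells (adjusted p = 0.00064) than in CD4 T cells. Mdm4, the second inhibitor of p53, had log2 fold changes of -0.04, -0.19 and -0.11 in B, CD4 T and CD8 T cells (adjusted p from 0.30 to 0.81).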

How the data were processed

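Cells from draining lymph nodes of 2 control and 2 EV-treated samples were profiled by droplet single-cell RNA sequencing, 1 library per sample. The authors deposited whole-number UMI counts per gene and cell barcode, which per the methods and labels were made with Cell Ranger 7.1.0 on mm10 without further normalization. Which annotation was counted, and whether intronic reads were, was not given in the sources used here. The deposited matrices held 34323 barcodes and 50749656 to 70418672 UMIs per library. Libraries shared 12 to 26 barcodes per pair. Cells with 200 to 5000 genes, at most 20000 UMIs and under 10% mitochondrial UMIs were kept (8141, 7891, 8164 and 8529), and the study's limit of 60% ribosomal UMIs was an alternative. Doublets were not removed in the main setting, and Scrublet (expected rate 6%), which marked 3.76%, 2.99%, 1.58% and 3.22% of cells, was an alternative. B and macrophage gates shared 51 cells.

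UMI counts were summed per library and class. EV and control sums were compared within each class with edgeR 4.0.16 (filterByExpr, TMM, quasi-likelihood test, two-sided, Benjamini-Hochberg over all genes tested, threshold 0.05). Classes were compared in a model of all 16 sums with library and class as terms, and with class by treatment terms for differences in EV effect. Foxp3 and other CD4 T cells were compared with library as a block. Shares of cells used cells thinned to 1000 UMIs with a fixed seed and exact 95% binomial intervals, and intervals cover counting error only. Alternatives were DESeq2 1.42.0, RLE scaling, no filter on low counts, a replicate block, thinned cells, no upper limits on genes or UMIs with under 5% mitochondrial UMIs, stricter gates (more UMIs of the class markers, no C1qa or C1qb in lymphocytes and no Cd79a in macrophages), doublets removed, and each library left out. The fits were run on simulated counts with changes larger than most EV effects given here, so the recovery of smaller effects was not tested. Software was R 4.3.3, Python 3.11.15, scanpy 1.11.5, numpy 2.4.6, pandas 2.3.3 and scipy 1.17.1.

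The 10 genes, the wider list, the marker lists and the tests were chosen with earlier results of these data known. The rule for named genes took the 10 genes, Trp53 and Mdm4 of the wider list, and any gene of that list that was called, of which there was none in the EV comparison. Each comparison gives the 10 genes by values or counts, and Chek2, Pml, Sfn, Pmaip1 and Rap2b were added after their values were seen. Gene coordinates are from GENCODE M21 (GRCm38), and promoter windows are from RefSeq (GRCm38.p6). P-values of the EV comparison within a class measure the spread between 2 libraries per group. Those of the contrasts between classes and of the Foxp3 contrast have library as a block and measure how differences within a library vary over libraries.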

Additional observations from a re-analysis of the deposited data

Results flagged for a closer look

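The EV effect on Sesn1 differed between B cells and CD4 T cells by 0.61 on the log2 scale (edgeR interaction test, SE 0.13, adjusted p = 0.0082), with B cells higher in both EV libraries than in both controls and CD4 T cell libraries overlapping. The value rests on control library 1, without which it was 0.40 (adjusted p = 0.30), and on EV library 1, without which it was 0.45 (adjusted p = 0.081). Without control library 2 or EV library 2 it was 0.83 and 0.82. Summed levels of cell cycle genes and shares of cells at equal depth are given in the results for B cells. The part of cell cycle genes in the Sesn1 values and the cause of the difference were not tested.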

How the results depend on the processing

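Of the 9 tested genes in B cells 0 were called by edgeR, but 2 without the filter on low counts, 2 with the replicate block, 1 with DESeq2 and 0 to 1 when a library was left out (Sesn1 in each, with Cdkn1a where 2). In CD4 T cells 0 were called, and 0 to 1 with a library left out (Aen without EV library 1). In CD8 T cells the 1 call became 2 with the replicate block (Aen and Ccng1), 0 with DESeq2, 0 with thinned cells, 0 with the other cell filter, and 0 to 3 with a library left out (0 without control library 2, and Aen, Bax and Ccng1 without EV library 1). The 1 called difference in EV effect between B and CD4 T cells (Sesn1) ranged from 0 to 1, and the 6 level differences of macrophages from 3 to 6 (3 without EV library 1), when a library was left out. A library was left out with 1 library remaining in that group, which is assumed to vary like the others. The cause of these changes was not tested.

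Replicate numbers were not used to pair the samples in the main setting. Deviations of libraries with the same number correlated over genes at 0.020, 0.061, 0.084 and 0.14 in B, CD4 T, CD8 T cells and macrophages. With a single difference between libraries in each group, these values cannot decide whether the numbers pair the samples. With the replicate block the log2 fold change of Sesn1 in B cells was 0.57 (adjusted p = 0.0023) and that of Cdkn1a 1.17 (adjusted p = 0.025). Over all genes the block moved the calls from 338 to 1182 of 13270 in B cells and 130 to 788 of 11933 in CD4 T cells. In CD8 T cells they moved from 270 to 1018 of 12284 and in macrophages from 0 to 53 of 3497. Calls of the wider list moved from 0 to 3 of 45, 2 of 37, 3 of 40 and 0 of 11. Without the filter on low counts the wider list had 2 calls in each lymphocyte class, of 51, 50 and 51 tested. Over all genes, no filter on low counts gave 1392 of 21630, 773 of 19885, 857 of 20198 and 65 of 12932. DESeq2 gave 460, 158, 165 and 6, the other cell filter 688, 175, 120 and 0, and thinned cells 226, 88, 139 and 0.

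Signs turned as follows. With thinned cells the EV effect was -0.029 for Bax, -0.25 for Zmat3 and -0.14 for Ddb2 in B cells, and -0.33 for Mdm2, 0.019 for Sesn1 and -0.11 for Ddb2 in CD8 T cells. The other cell filter gave -0.0024 for Mdm2 in CD8 T cells and 0.056 for Ccng1 in macrophages, which was 0.089 without the filter on low counts. In thinned cells the EV effect in B minus CD4 T cells was -0.22 for Cdkn1a, -1.15 for Zmat3, 0.0028 for Trp53inp1 and 0.043 for Aen. The level difference in thinned cells was -0.058 for Cdkn1a and 0.015 for Bax in B cells, -0.19 for Aen in CD8 T cells, and -0.72 for Mdm2 and -0.30 for Sesn1 in macrophages. That of Mdm2 in CD8 T cells was 0.0054 with RLE scaling, 0.021 without the filter on low counts, 0.018 with stricter gates and 0.0101 without doublets. In macrophages it was -0.0504 for Mdm2 without the filter on low counts, 0.078 and 0.29 for Ccng1 with RLE scaling and stricter gates, and -1.43 for Sesn1 with stricter gates.

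With a library left out, the EV effect ranged from -0.12 to 0.0021 for Mdm2 and -0.011 to 0.12 for Bax in B cells, from -0.089 to 0.25 for Zmat3 and -0.21 to 0.097 for Sesn1 in CD4 T cells, and from -0.042 to 0.075 for Mdm2, -0.16 to 0.039 for Sesn1 and -0.024 to 0.0698 for Ddb2 in CD8 T cells. In macrophages it ranged from -0.34 to 2.17 for Cdkn1a, -1.43 to 0.25 for Mdm2 and -1.09 to 1.02 for Ccng1. The EV effect on Zmat3 in B minus CD4 T cells ranged from -0.0597 to 0.44. The level difference ranged from -0.028 to 0.035 for Mdm2 in CD8 T cells, and from -0.26 to 0.12 for Mdm2, -0.38 to 0.12 for Ccng1 and -0.13 to 0.35 for Sesn1 in macrophages. Of the EV values under other settings than a left-out library, 258 kept direction and side of the threshold, 9 turned, 6 gained and 3 lost a call. Only Aen in CD8 T cells was called in the main setting, so the 3 lost calls are its own. Most of the 258 are thus uncalled values that stayed uncalled.

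The depth limits Cdkn1a and Phlda3 in lymphocytes and all values in macrophages, where 280 cells gave few UMIs. Thinned macrophage sums left none of the 10 genes tested, so that setting gave no value for their EV effect. Cycling B cells were not compared, since control library 1 held fewer than the 20 required.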

Other observations

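Among the wider list, 3 genes were singled out after their values were seen, each for a higher value with EVs in a lymphocyte class. None passed the test. Chek2, a kinase that phosphorylates p53 after DNA breaks, was at 9.60 and 11.1 CPM (control) against 13.8 and 17.4 CPM (EV) in B cells, a log2 value of 0.59 (edgeR, adjusted p = 0.082). In CD4 T cells it stood 0.72 higher (adjusted p = 0.21) and in CD8 T cells 0.67 higher (adjusted p = 0.062). The libraries did not overlap in any of these classes, beside 51.8%, 49.4% and 49.7% of all genes in B, CD4 T and CD8 T cells. Chek2 was picked for its values, so its lack of overlap is not a test. Pml, the organizer of nuclear bodies that hold p53, was at 29.8 and 30.0 against 40.4 and 41.8 CPM in CD4 T cells, a log2 value of 0.46 (adjusted p = 0.058). Pml was also higher in B cells (log2 0.23, adjusted p = 0.27) and CD8 T cells (0.34, adjusted p = 0.12), without overlap. Sfn, which encodes 14-3-3 sigma, a cell cycle inhibitor, was at 32.7 and 29.2 against 65.9 and 40.3 CPM in B cells, a log2 value of 0.78 (adjusted p = 0.087). In CD4 T cells the log2 value of Sfn was 0.10 and the libraries overlapped. In CD8 T cells Sfn went the other way, at 6.21 and 6.14 against 5.21 and 5.51 CPM (log2 -0.20), and the libraries did not overlap. Other genes of the list were lower with EVs. Pmaip1, of the death genes, was at 18.3 and 16.2 against 13.2 and 12.8 CPM in B cells (log2 -0.41, adjusted p = 0.11). Rap2b was at 45.1 and 44.3 against 37.6 and 37.8 CPM in CD8 T cells (log2 -0.25, adjusted p = 0.16). Neither overlapped between the groups, beside the same shares of all genes, and both were picked after their values were seen. Rap2b was also lower in B cells (log2 -0.32, adjusted p = 0.27) and CD4 T cells (-0.16, adjusted p = 0.45), without overlap. Pmaip1 had log2 values of -0.25 in CD4 T and -0.03 in CD8 T cells, where the libraries overlapped.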
